A study of Oryza sativa with 18 samples.

Results

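The growth-regulating factors GRF1 to GRF10 of rice were followed in young panicles of Wuxiang S (WXS), an indica line whose male fertility depends on temperature and day length (a photo-thermosensitive genic male sterile, or PTGMS, line). The 10 members were taken by gene identifier from the deposited table of 47919 coding genes, and all 10 were in it: GRF1 (LOC_Os02g53690), GRF2 (LOC_Os06g10310), GRF3 (LOC_Os04g51190), GRF4 (LOC_Os02g47280), GRF5 (LOC_Os06g02560), GRF6 (LOC_Os03g51970), GRF7 (LOC_Os12g29980), GRF8 (LOC_Os11g35030), GRF9 (LOC_Os03g47140) and GRF10 (LOC_Os02g45570). By these identifiers the genes lie on rice chromosomes 2, 3, 4, 6, 11 and 12. They were chosen as targets of the microRNA miR396 and not by their values in these libraries, though earlier results of these data were known. No microRNA was measured in the tables used here.

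The series holds 18 strand-specific RNA-seq libraries, 3 for each of the 6 groups FP2, SP2, FP3, SP3, FP4 and SP4. WXS (F) plants were moved, once their panicles had begun to grow, to an incubator at a daily mean of about 21 °C with 12 h of light, and became male fertile. WXS (S) plants stayed in the field above 24 °C with days longer than 12 h, and formed no pollen. P2 is the formation of pollen mother cells, P3 is meiosis and P4 is the formation of microspores. All groups are the same line with no transgene, so the groups differ in growth conditions and stage. Temperature, day length, incubator against field and fertility change together between WXS (F) and WXS (S), and their parts in any difference cannot be told apart. The libraries are of whole young panicles, in which fewer cells of a type and less RNA per cell cannot be told apart either. How many plants made up a library is not given in the sources used here.

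GRFs are plant transcription factors with a QLQ domain, through which they bind co-activators, and a WRC domain, through which they bind DNA. The co-activators are the small GRF-interacting factors (GIFs), and the GRF-GIF complexes are known for keeping cells dividing in young organs such as leaves and floral organs. The microRNA miR396 cuts most GRF transcripts, and its level is known to increase as organs mature. In rice, GRF1 was first found as a gibberellin-induced gene of the growing stem, GRF4 is known for grain size and nitrogen use, GRF6 and GRF10 for panicle and floral organ form, and GRF3 and GRF10 for binding to the promoter of a KNOX meristem gene.

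Counts summed over coding genes lay between 30577833 (SP3-2) and 52222861 (SP2-3) per library, and single members had 8 to 4347 counts. Libraries of a group correlated at r = 0.973 to 0.987 (log2 scale), with SP3-2 lowest, over the 27233 genes with at least 10 counts in at least 3 libraries. No library was a repeat of another. Of the markers of panicles and florets (MADS1, MADS3, MADS6, MADS16 and MADS58), all 5 were present in every group, with a summed level of 347 to 971 CPM (counts scaled to one library total) in single libraries. Whether the libraries of a group came from separate plants is not stated beyond their naming as biological replicates, so the P values measure the spread between these samples. Levels in CPM, scaled by the trimmed mean of M values (TMM), serve below to compare libraries for 1 gene. Levels of different genes are compared only in the authors' FPKM, a scale meant to allow for gene length.

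All 10 genes were transcribed in all 6 groups, and their summed level was lower at each later stage. Summed FPKM of the 10 members was 115.6 ± 11.1 in FP2, 51.3 ± 2.26 in FP3 and 23.7 ± 1.41 in FP4 (SD, n = 3 each). In WXS (S) the sums were 143.9 ± 16.3 in SP2, 78.4 ± 11.4 in SP3 and 27.8 ± 1.09 in SP4 (SD, n = 3 each). At P3 and P4 the WXS (F) libraries lay below all WXS (S) libraries, while the ranges overlapped at P2 (106.0 to 127.7 in FP2 and 125.8 to 157.3 in SP2). On the other scale, summed TMM-scaled CPM was 335.0 in FP2 and 405.5 in SP2, 160.8 in FP3 and 227.1 in SP3, and 84.9 in FP4 and 94.6 in SP4. On that scale the groups did not overlap at P2 (319.2 to 351.7 in FP2 and 381.9 to 428.1 in SP2). These sums describe the family and were not tested.

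**Figure D1:**
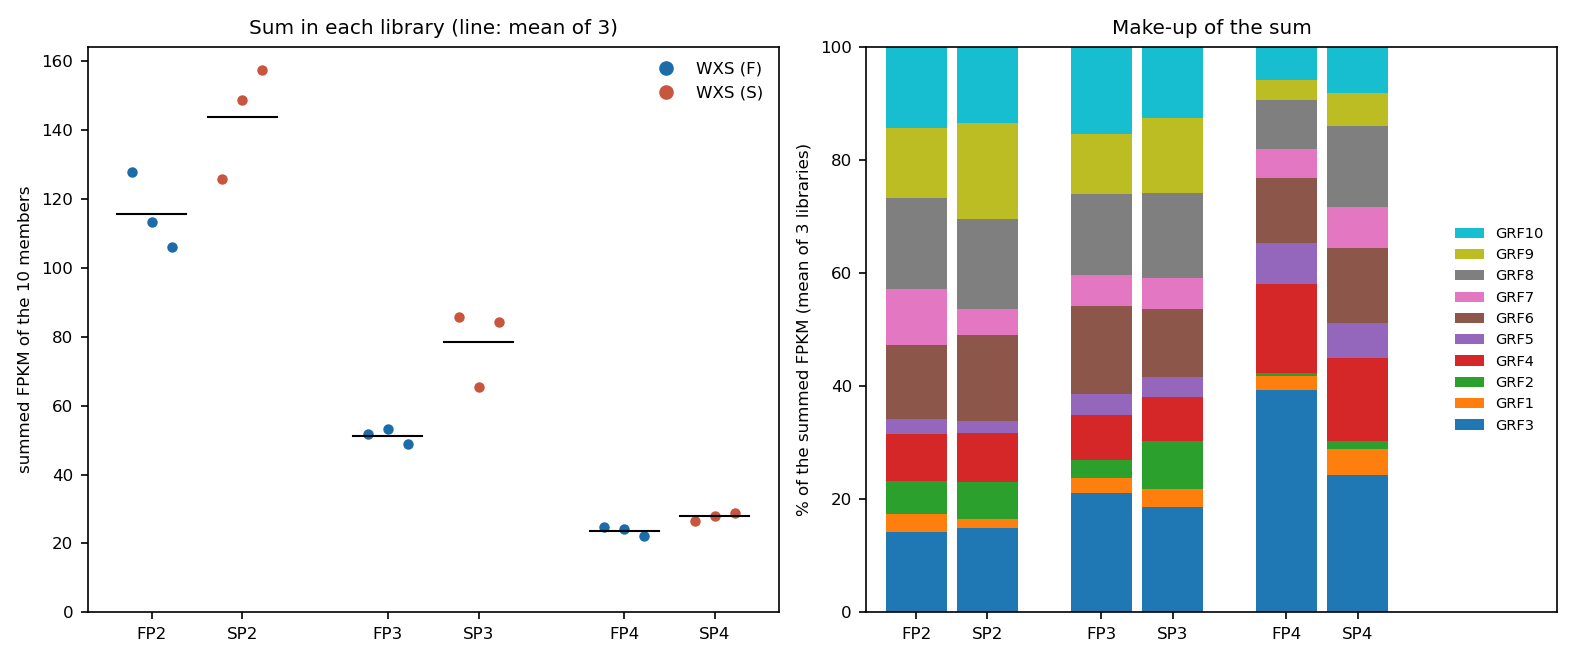
Left, summed FPKM of GRF1 to GRF10 (y axis, FPKM) in each library by group (x axis), with points for libraries and lines for the means of 3. Right, the mean share of each member in that sum (y axis, percent). The sums decline with stage in both conditions, and the share of GRF3 reaches 39.4% in FP4 and 24.4% in SP4.

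The order of the members changed as the sum declined. Over all 18 libraries GRF3 had the highest mean, at 13.2 FPKM, followed by GRF8 (11.1 FPKM), GRF6 (10.1 FPKM), GRF10 (9.56 FPKM) and GRF9 (9.55 FPKM). GRF4 (6.68 FPKM), GRF7 (4.75 FPKM), GRF2 (4.22 FPKM), GRF5 (2.37 FPKM) and GRF1 (1.94 FPKM) were lower. At P2 no member stood out. In FP2 the libraries of GRF8 (18.5 FPKM), GRF10 (16.7 FPKM) and GRF3 (16.4 FPKM) overlapped their neighbours in the order, and in SP2 the 5 highest, from GRF9 at 24.5 FPKM to GRF10 at 19.3 FPKM, each overlapped the next. At P4 GRF3 stood alone in both conditions, at 9.30 ± 0.199 FPKM in FP4 and 6.76 ± 0.851 FPKM in SP4 (SD, n = 3 each). The second was GRF4, with 3.72 ± 0.314 FPKM in FP4, above the next member, and 4.09 ± 1.49 FPKM in SP4, overlapping the next (SD, n = 3 each). The lowest at P4 was GRF2, at 0.134 ± 0.0523 FPKM in FP4 and 0.411 ± 0.0922 FPKM in SP4 (SD, n = 3 each). Thus GRF3 made up 14.2 ± 0.643% of the summed FPKM in FP2, 21.2 ± 0.679% in FP3 and 39.4 ± 1.98% in FP4 (SD, n = 3 each). In WXS (S) its share was 14.9 ± 1.06% in SP2, 18.6 ± 2.38% in SP3 and 24.4 ± 3.71% in SP4 (SD, n = 3 each). The share of GRF2 was 5.71% in FP2, 3.25% in FP3 and 0.577% in FP4, and 6.66% in SP2, 8.45% in SP3 and 1.47% in SP4. The order depends on the scale. By CPM GRF10 ranked 6 and GRF9 ranked 4 over all libraries, with a listed length of 1341 bases for GRF10 and 3382 bases for GRF9. The FPKM do not follow from counts and listed lengths alone. In SP2-1 GRF1 had 309 counts, 2095 listed bases and 2.46 FPKM, and GRF5 463 counts, 3275 listed bases and 3.42 FPKM. By counts per listed base GRF1 would stand above GRF5 there, so the order and shares hold for the deposited FPKM only.

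**Figure D2:**
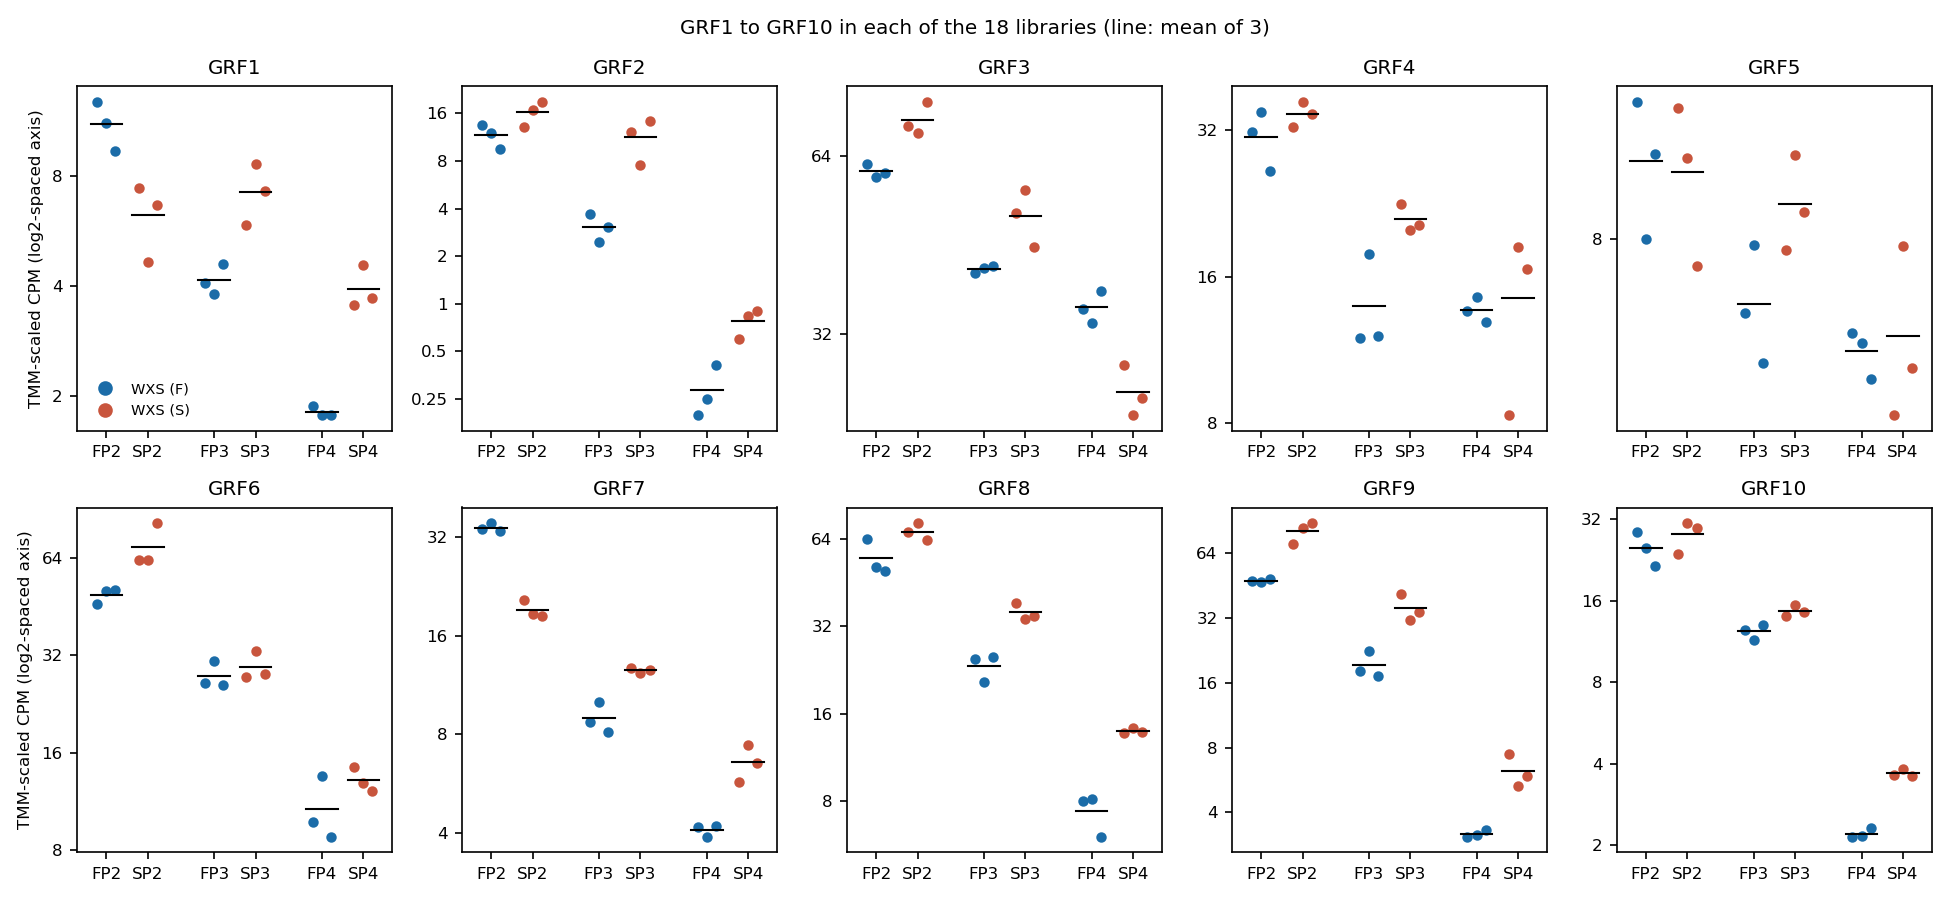
TMM-scaled CPM (y axis, spaced by log2, a separate range in each panel) of the 10 members in each of the 18 libraries, grouped by stage (x axis), with lines for the means of 3. GRF1 and GRF7 lie higher in FP2 than in SP2 and lower in FP3 and FP4 than in SP3 and SP4, and GRF3 lies higher in FP4 than in SP4.

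The first comparison asks how the members change between successive stages within a condition. In WXS (F) all 10 members were lower in FP3 than in FP2 at the threshold used throughout (edgeR quasi-likelihood test, Benjamini-Hochberg adjusted P below 0.05 over 27233 coding genes, of any size), against 16.6% of all tested genes that fell. The median log2 fold change of the members was -1.19, beside 0.07 over all genes. GRF7, a gene of plant architecture, fell most, to 8.70, 10.04 and 8.12 CPM in FP3, against 34.1, 35.4 and 33.4 CPM in FP2 (log2 fold change -1.94 ± 0.11, SE, edgeR adjusted P = 2.37e-09). GRF2 followed with -1.93 ± 0.27 (SE). GRF5 was nearest to the threshold, at -0.53 ± 0.19 (SE, edgeR adjusted P = 0.0431). Its call was lost in 10 of 24 alternatives, among them leaving out FP2-1 (-0.38), FP2-3 (-0.49), FP3-1 (-0.51), FP3-3 (-0.43), SP2-2 (-0.53), SP4-3 (-0.53) or any 1 of the 3 FP4 libraries (-0.52 each), with an adjusted P of 0.0202 to 0.186 over all 24.

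Fewer members moved between P2 and P3 in WXS (S). In SP3 7 of 10 fell relative to SP2, against 12% of all tested genes that fell, with a median of -0.67 beside 0.00 over all genes. GRF6 (-1.23 ± 0.15), GRF9 (-1.18 ± 0.14) and GRF10 (-0.94 ± 0.12) led (SE). GRF8 fell by 0.92, GRF4 by 0.72, GRF7 by 0.61 and GRF3 by 0.54 on the log2 scale. The call of GRF4 (edgeR adjusted P = 0.0303) was lost without SP2-2 (-0.68), SP2-3 (-0.72), SP3-1 (-0.78), SP3-2 (-0.65) or SP3-3 (-0.70) and without TMM factors (-0.64), with an adjusted P of 0.00223 to 0.0837 over 24 alternatives. GRF1 (0.21 ± 0.19), GRF2 (-0.52 ± 0.26) and GRF5 (-0.12 ± 0.19) did not pass (SE, edgeR adjusted P = 0.480, 0.178 and 0.747). The 3 libraries of GRF2 in SP3 were uneven, at 12.2, 7.53 and 14.4 CPM, against 13.05, 16.9 and 19.0 CPM in SP2, with the low value in SP3-2.

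From meiosis to microspores the decline was steep for some members and slight for others. In FP4 7 of 10 fell relative to FP3, against 19.3% of all tested genes that fell, and in SP4 8 of 10 fell relative to SP3, against 20.3%. GRF2 fell most in both, to 0.197, 0.25 and 0.408 CPM in FP4, against 3.69, 2.47 and 3.06 CPM in FP3 (-3.41 ± 0.32, SE, edgeR adjusted P = 6.40e-07). In SP4 it had 0.599, 0.832 and 0.902 CPM, against 12.2, 7.53 and 14.4 CPM in SP3 (-3.87 ± 0.30, SE, edgeR adjusted P = 1.00e-07). GRF9 (-2.60 in FP4 over FP3, -2.51 in SP4 over SP3) and GRF10 (-2.48 in FP4 over FP3, -1.999 in SP4 over SP3) came next. At the other end stood GRF4 and GRF5. GRF4 differed by -0.03 ± 0.23 in FP4 over FP3 and by -0.54 ± 0.23 in SP4 over SP3 (SE), and GRF5 by -0.17 ± 0.19 in FP4 over FP3 and by -0.49 ± 0.19 in SP4 over SP3 (SE). None of these 4 values passed (edgeR adjusted P = 0.951, 0.0673, 0.537 and 0.0556). Both values of SP4 over SP3 passed without SP4-2 (-0.73 for GRF4, -0.66 for GRF5), with DESeq2 (-0.57 for GRF4, -0.51 for GRF5) and with genes over 1% of a library left out (-0.59 for GRF4, -0.54 for GRF5), and that of GRF5 also without SP2-1 or SP2-3 (-0.49 each). Over 24 alternatives the adjusted P lay at 0.0275 to 0.228 for GRF4 and at 0.0184 to 0.199 for GRF5.

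**Figure D3:**
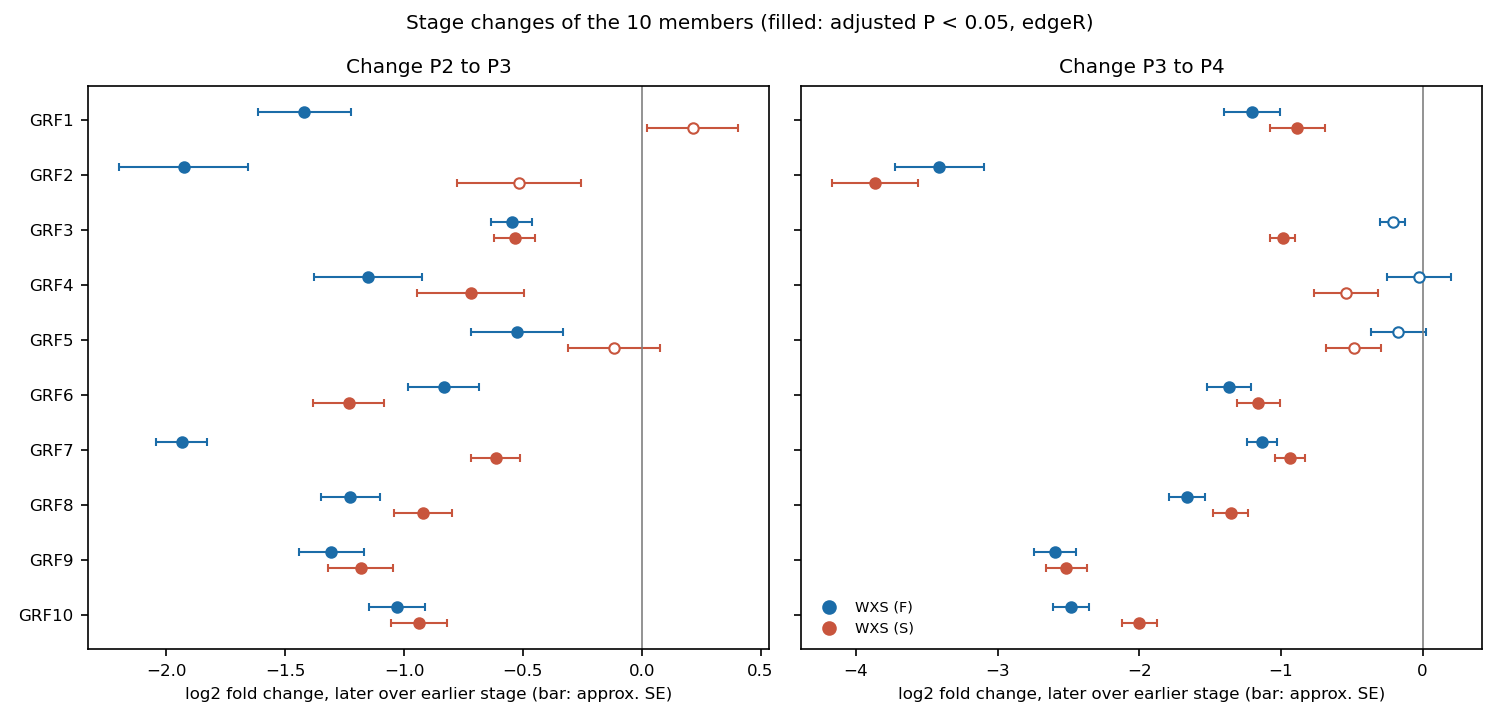
Log2 fold change (x axis, later over earlier stage) of each member (y axis) from P2 to P3 and from P3 to P4, WXS (F) above WXS (S) in each row, with bars for the approximate SE and filled points for an edgeR adjusted P below 0.05. From P2 to P3 the values of GRF1, GRF2 and GRF7 lie further apart than those of the other members, and from P3 to P4 those of GRF3 do.

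The second comparison, WXS (F) against WXS (S) at the same stage, asks which members differ with the fertility-inducing conditions. At P2 5 of 10 members passed, of 23759 genes tested. GRF1 and GRF7 rose in FP2, against 21.3% of all tested genes that rose, and GRF3, GRF6 and GRF9 fell, against 19.5% that fell. At P3 all 10 log2 fold changes were negative and 7 passed, against 19.1% of 24452 genes that fell, with a median of -0.54 beside 0.04 over all genes. None rose at P3, at an unadjusted P below 0.05 in edgeR or in DESeq2 (0 of 10 each). For 8 members every FP3 library lay below every SP3 library in CPM, against 25.5% of genes. At P2 2 members lay apart and higher and 3 apart and lower, against 29.1% and 26.5% of genes. At P4 1 member lay apart and higher and 6 apart and lower, against 32.5% and 30.3%. In FPKM the overlap of single members can differ. At P4 6 members fell, against 24.4% of 24724 genes that fell, and GRF3 rose, against 28.2% that rose. The median at P4 was -0.70 beside 0.00 over all genes. Of differences of 1 or more on the log2 scale, none was called at P2 (against 10.3% of genes that rose and 7.76% that fell so far). GRF2 was called with that size at P3 (against 6.65% of genes), and GRF1 and GRF2 were at P4 (against 6.78%).

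These counts rest on 3 libraries a group and on small differences. Without FP2-2, GRF7 and GRF9 were the 2 members called at P2, and without FP2-1 or FP2-3 there were 3 each. DESeq2 called 7 at P2, among them GRF2 (-0.50) and GRF8 (-0.32). Of all 23759 genes it called 5407 that rose and 5473 that fell there. Without FP3-1, GRF2, GRF8 and GRF9 were the 3 called at P3, and without FP3-3 there were 4. At P4 leaving out any 1 library gave 6 to 8.

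**Figure D4:**
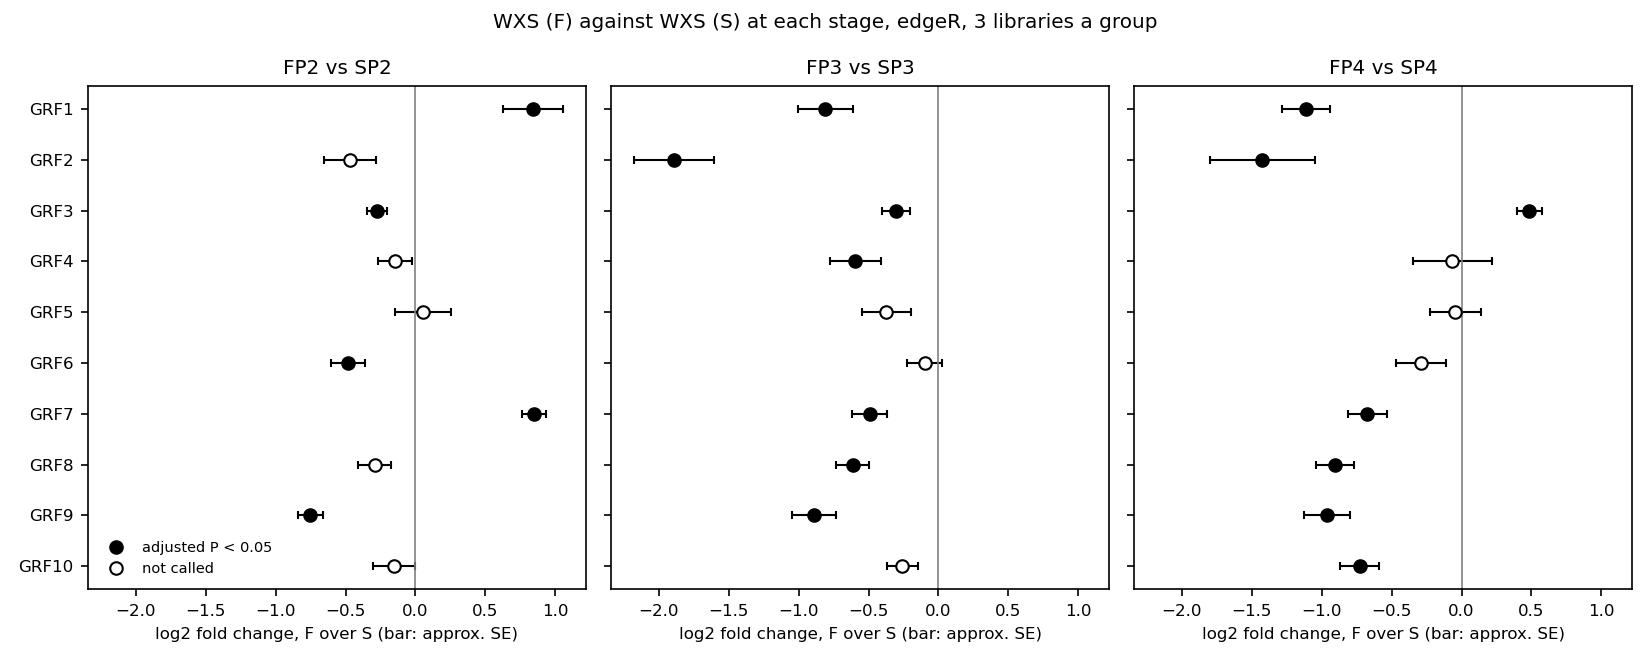
Log2 fold change of WXS (F) over WXS (S) (x axis) of each member (y axis) at P2, P3 and P4, with bars for the approximate SE and filled points for an edgeR adjusted P below 0.05. At P3 all 10 points lie left of 0, and GRF1, GRF7, GRF3 and GRF5 change sides between panels, GRF5 with no point filled.

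GRF1 and GRF7 shared a crossing pattern. GRF1 had 12.8, 11.2 and 9.39 CPM in FP2, against 7.44, 4.66 and 6.67 CPM in SP2 (log2 fold change 0.84 ± 0.22, SE, edgeR adjusted P = 0.0216). In FP3 it had 4.08, 3.81 and 4.58 CPM, against 5.87, 8.64 and 7.27 CPM in SP3 (-0.81 ± 0.20, SE, edgeR adjusted P = 0.0165), and in FP4 1.88, 1.77 and 1.77 CPM, against 3.53, 4.56 and 3.71 CPM in SP4 (-1.11 ± 0.17, SE, edgeR adjusted P = 0.00184). WXS (F) lay on top with no overlap at P2, against 29.1% of all tested genes. It lay below with no overlap at P3 and P4, against 25.5% and 30.3%. The P2 call was lost without FP2-1 (0.74) or FP2-2 (0.85), and the P3 call without FP3-1 (-0.82) or FP3-2 (-0.77), with an adjusted P of up to 0.0725 at P2 and 0.0536 at P3 over 12 alternatives each. GRF7 had 34.1, 35.4 and 33.4 CPM in FP2, against 20.6, 18.6 and 18.3 CPM in SP2 (0.85 ± 0.09, SE, edgeR adjusted P = 0.000739). It had 8.70, 10.04 and 8.12 CPM in FP3, against 12.7, 12.3 and 12.6 CPM in SP3 (-0.49 ± 0.13, SE, edgeR adjusted P = 0.0195). The groups of GRF7 were apart at P4 too, with 4.17, 3.88 and 4.19 CPM in FP4, against 5.73, 7.43 and 6.51 CPM in SP4 (-0.67 ± 0.14, SE, edgeR adjusted P = 0.00745). Its P3 call was lost without FP3-1 (-0.50) or FP3-3 (-0.40) and with no filter on low counts (-0.51), where the adjusted P reached 0.0919 over 12 alternatives.

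The genes tied to floral organs and meristem control, GRF6, GRF10 and GRF3, differed from each other. GRF6 was lower at P2, with 46.2, 50.4 and 51.0 CPM in FP2, against 63.0, 63.1 and 81.8 CPM in SP2 (-0.48 ± 0.12, SE, edgeR adjusted P = 0.0199), a call lost without any 1 of FP2-1 (-0.43), FP2-2 (-0.49) and FP2-3 (-0.50). In FP3 and FP4 its libraries overlapped those of SP3 and SP4 in CPM. In FPKM they did not, with 7.28 to 8.57 in FP3 and 8.91 to 9.70 in SP3, and 2.40 to 2.98 in FP4 and 3.27 to 4.32 in SP4. The log2 fold changes at P3 and P4 were -0.10 ± 0.13 and -0.29 ± 0.18 (SE, edgeR adjusted P = 0.570 and 0.222), the last called without FP4-2 (-0.47). Over 12 alternatives each the adjusted P of GRF6 lay at 0.00118 to 0.0754 at P2 and 0.0288 to 0.558 at P4. GRF10 passed at P4 alone in edgeR, and in DESeq2 at P3 as well (-0.30, DESeq2 adjusted P = 0.0402). It had 2.15, 2.16 and 2.31 CPM in FP4, against 3.62, 3.81 and 3.61 CPM in SP4 (-0.73 ± 0.14, SE, edgeR adjusted P = 0.00521), and its values at P2 and P3 were -0.15 ± 0.15 and -0.26 ± 0.11 (SE, edgeR adjusted P = 0.463 and 0.102).

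GRF3 was the one member that rose at P4. It had 35.3, 33.4 and 37.9 CPM in FP4, against 28.4, 23.4 and 25.0 CPM in SP4. FP4 lay higher with no overlap, against 32.5% of all tested genes. The log2 fold change was 0.48 ± 0.09 (SE, edgeR adjusted P = 0.00466), and this call of GRF3 held in all 12 alternatives. At P2 its level was 61.9, 58.9 and 59.9 CPM in FP2, against 71.8, 69.8 and 78.9 CPM in SP2 (-0.27 ± 0.07, SE, edgeR adjusted P = 0.0230). At P3 it was 40.6, 41.4 and 41.7 CPM in FP3, against 51.2, 56.0 and 44.9 CPM in SP3 (-0.30 ± 0.10, SE, edgeR adjusted P = 0.0494). Both of these calls were fragile. The first was lost without any 1 of the FP2 libraries (-0.28, -0.25 and -0.26 without FP2-1, FP2-2 and FP2-3) and without TMM factors (-0.13). The second was lost without SP3-1 (-0.31), FP3-1 (-0.32), FP3-2 (-0.33) or FP3-3 (-0.29) and with no filter on low counts (-0.32). The adjusted P reached 0.168 at P2 and 0.15 at P3 over 12 alternatives each.

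GRF4, the grain-size regulator, passed at P3 alone. It had 11.9, 17.8 and 12.1 CPM in FP3, against 22.6, 19.9 and 20.4 CPM in SP3 (-0.60 ± 0.18, SE, edgeR adjusted P = 0.0370). In CPM the groups did not overlap, though FP3-2 stood near the SP3 libraries. In FPKM FP3-2 (5.50) lay above SP3-2 (4.99). The call was lost without SP3-1 (-0.55), SP3-3 (-0.66), FP3-1 (-0.52) or FP3-3 (-0.48), with an adjusted P of 0.00545 to 0.136 over 12 alternatives. At P2 the difference was -0.15 ± 0.12 (SE, edgeR adjusted P = 0.372). At P4 1 library set the value. GRF4 had 13.6, 14.5 and 12.9 CPM in FP4, against 8.30, 18.4 and 16.6 CPM in SP4, where SP4-1 was lowest of all 6 (-0.07 ± 0.28, SE, edgeR adjusted P = 0.861). Without SP4-1 the value was -0.35 and passed (edgeR adjusted P = 0.0340, range over 12 alternatives 0.0340 to 0.997).

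GRF8 and GRF9 fell in WXS (F) at P3 and P4, and GRF9 at P2 as well. GRF9 had 47.7, 47.0 and 48.4 CPM in FP2, against 71.0, 83.7 and 88.4 CPM in SP2 (-0.75 ± 0.09, SE, edgeR adjusted P = 0.00138). It had 18.1, 22.5 and 17.3 CPM in FP3, against 41.3, 31.4 and 34.2 CPM in SP3 (-0.89 ± 0.16, SE, edgeR adjusted P = 0.00472), and 3.08, 3.14 and 3.33 CPM in FP4, against 7.50, 5.33 and 5.90 CPM in SP4 (-0.96 ± 0.17, SE, edgeR adjusted P = 0.00331). GRF9 was thus the one member that fell at all 3 stages, its groups never overlapped, and the calls held in all 12 alternatives at each stage. Of all tested genes 26.5%, 25.5% and 30.3% lay lower with no overlap at P2, P3 and P4. GRF8, which in rice has been linked to planthopper resistance, had 24.7, 20.6 and 25.0 CPM in FP3, against 38.5, 33.9 and 34.7 CPM in SP3 (-0.61 ± 0.12, SE, edgeR adjusted P = 0.00652). It had 7.995, 8.16 and 6.03 CPM in FP4, against 13.8, 14.3 and 13.8 CPM in SP4 (-0.91 ± 0.14, SE, edgeR adjusted P = 0.00180). At P2 the groups of GRF8 overlapped (-0.29 ± 0.12, SE, edgeR adjusted P = 0.0886), and without FP2-1 the value was -0.40 and passed (range of adjusted P over 12 alternatives 0.0298 to 0.376).

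GRF2 had the largest difference of the 10 members at P3 and P4, and GRF5 passed at no stage. GRF2 had 3.69, 2.47 and 3.06 CPM in FP3, against 12.2, 7.53 and 14.4 CPM in SP3 (-1.89 ± 0.29, SE, edgeR adjusted P = 0.00264), so that the FP3 mean was 0.27 of the SP3 mean. In FP4 and SP4 the level was under 1 CPM in every library, with no overlap (-1.43 ± 0.38, SE, edgeR adjusted P = 0.0185), and the call was lost without SP4-3 (-1.31), FP4-1 (-1.21) or FP4-2 (-1.32), with an adjusted P of up to 0.0640 over 12 alternatives. At P2 the groups overlapped (-0.47 ± 0.19, SE, edgeR adjusted P = 0.0905), and without SP2-1 the value was -0.65 and passed (range of adjusted P over 12 alternatives 0.0235 to 0.244). GRF5 stood at 5.10 to 11.3 CPM over all 18 libraries, with groups that overlapped at every stage on this scale. In FPKM its groups were apart at P3, with 1.63 to 2.18 in FP3 and 2.65 to 2.97 in SP3. Its log2 fold changes were 0.05 ± 0.20 in FP2, -0.37 ± 0.18 in FP3 and -0.04 ± 0.18 in FP4 over their SP groups (SE, edgeR adjusted P = 0.856, 0.133 and 0.861).

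Over the 3 stages together, with the stage as a covariate, 5 of 10 members fell in WXS (F), against 21.4% of 27233 genes that fell: GRF2 (-1.25 ± 0.22), GRF9 (-0.87 ± 0.08), GRF8 (-0.61 ± 0.09), GRF10 (-0.38 ± 0.09) and GRF6 (-0.30 ± 0.09, all SE). The other members did not pass. Among them, GRF1 (-0.37 ± 0.25), GRF7 (-0.11 ± 0.18) and GRF3 (-0.04 ± 0.10) had calls of opposite sign at different stages (SE, edgeR adjusted P = 0.237, 0.654 and 0.784). GRF4 (-0.28 ± 0.14, SE) passed without SP4-1 (-0.37, edgeR adjusted P = 0.00611, range over 23 alternatives 0.00611 to 0.213).

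The third comparison tests the difference between the stage changes of the 2 conditions itself. From P2 to P3 it passed for 3 of 10 members, all with a steeper decline in WXS (F), against 12.4% of 27233 genes with a more negative change. The difference, change in WXS (F) minus change in WXS (S), was -1.63 ± 0.27 for GRF1, -1.41 ± 0.37 for GRF2 and -1.32 ± 0.15 for GRF7 (SE, edgeR adjusted P = 0.000341, 0.0106 and 7.00e-06). These 3 calls held without each of the 18 libraries in turn. For GRF3 (-0.01 ± 0.12), GRF9 (-0.12 ± 0.19) and GRF10 (-0.09 ± 0.16) the changes in the 2 conditions lay close together (SE). From P3 to P4 1 member passed, GRF3, with 0.77 ± 0.12 (SE, edgeR adjusted P = 0.000491), against 6.74% of genes with a more positive change. It declined less in WXS (F), by -0.21 ± 0.09 in FP4 over FP3, which did not pass, and by -0.99 ± 0.09 in SP4 over SP3, which did (SE, edgeR adjusted P = 0.0708 and 4.16e-07). The value of FP4 over FP3 passed without SP3-3 (-0.21), without TMM factors (-0.29) and in a fit of the 6 libraries alone (-0.18), with an adjusted P of 0.0150 to 0.236 over 24 alternatives. GRF10 was next at -0.48 ± 0.17 (SE, edgeR adjusted P = 0.0610). It passed without SP2-1 (-0.48), FP2-1 (-0.49), FP2-3 (-0.49) or SP3-2 (-0.52), with an adjusted P of 0.0300 to 0.179 over 23 alternatives, and then 2 members were called.

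Of the 3 co-activators, 1 fell in WXS (F) at P2 and 2 fell at P3 and at P4. Of all tested genes 19.5%, 19.1% and 24.4% fell at P2, P3 and P4. GIF1, the rice counterpart of ANGUSTIFOLIA3 in Arabidopsis, had 40.7, 34.4 and 43.6 CPM in FP2, against 36.0, 30.8 and 29.5 CPM in SP2, with an overlap (0.31 ± 0.13, SE, edgeR adjusted P = 0.0957). It had 8.62, 7.70 and 7.09 CPM in FP3, against 14.5, 14.0 and 11.05 CPM in SP3 (-0.76 ± 0.16, SE, edgeR adjusted P = 0.00854), and 2.27, 2.23 and 1.95 CPM in FP4, against 4.62, 3.38 and 4.29 CPM in SP4 (-0.92 ± 0.18, SE, edgeR adjusted P = 0.00560). Its decline from P2 to P3 was steeper in WXS (F), by -1.06 ± 0.20 (SE, edgeR adjusted P = 0.000980). GIF3 fell at every stage, with -0.95 ± 0.15 in FP2, -1.25 ± 0.15 in FP3 and -0.96 ± 0.11 in FP4 relative to WXS (S) (SE, edgeR adjusted P = 0.00365, 0.00111 and 0.000471). Its libraries never overlapped between conditions, with 35.9 to 39.3 CPM in FP2 and 56.9 to 84.4 CPM in SP2. Of all tested genes 26.5%, 25.5% and 30.3% lay lower with no overlap at P2, P3 and P4. GIF2 passed at no stage (-0.29 ± 0.10, -0.30 ± 0.14 and 0.14 ± 0.07 at P2, P3 and P4, SE, edgeR adjusted P = 0.0606, 0.136 and 0.124), and it stayed between 27.1 and 45.1 CPM in all 18 libraries.

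**Figure D5:**
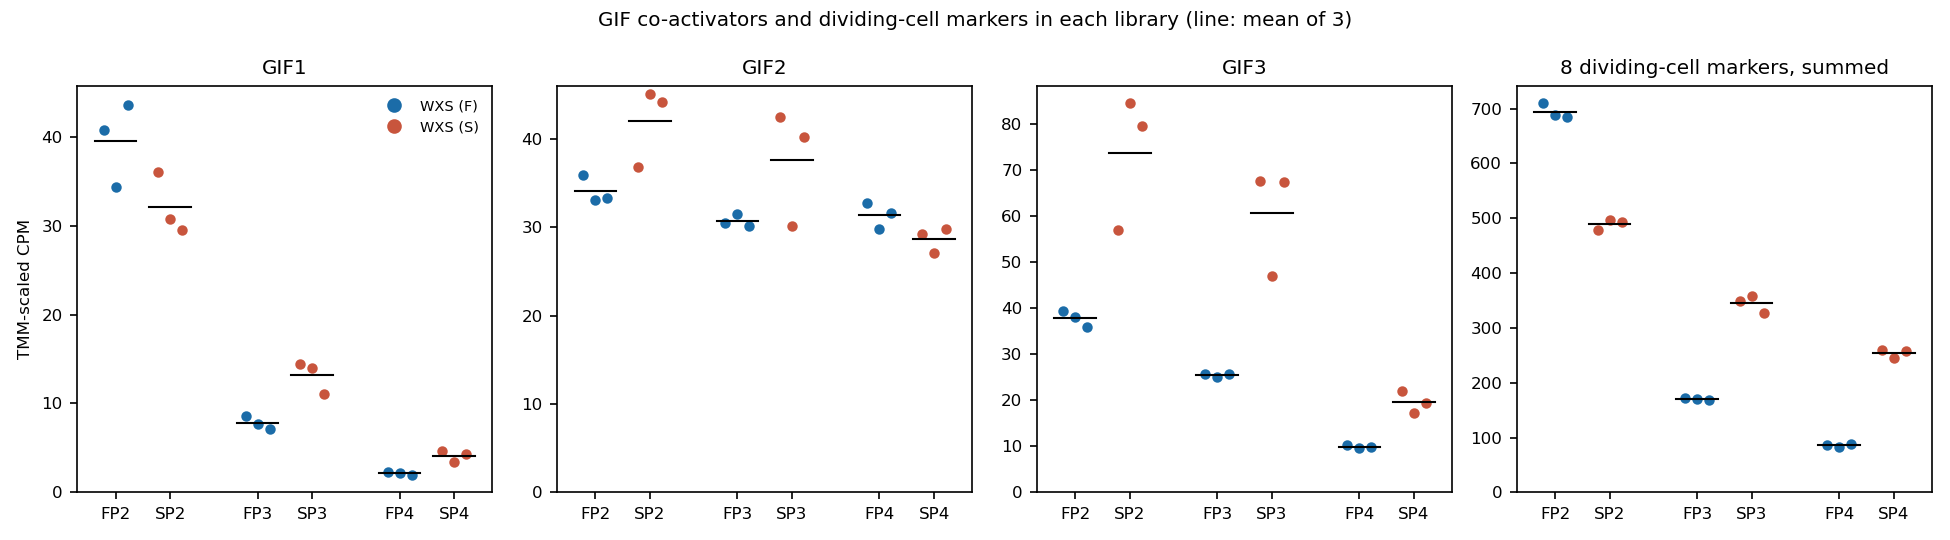
TMM-scaled CPM (y axis, from 0) of GIF1, GIF2 and GIF3 and of 8 dividing-cell markers summed, in each library by group (x axis), with lines for the means of 3. GIF1 and the dividing-cell sum are higher in FP2 than in SP2 on average and lower in FP3 and FP4 than in SP3 and SP4, and GIF3 is lower in WXS (F) at every stage.

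The other 2 genes of the family in rice, GRF11 and GRF12, differed. GRF12 was low, at 1.71 to 2.16 CPM in FP2 and 3.83 to 4.11 CPM in SP2, and fell by 1.02 in FP2, 0.92 in FP3 and 0.99 in FP4 on the log2 scale (edgeR adjusted P = 0.00543, 0.0170 and 0.0376). Its P4 value rests on few counts, 17 to 31 a library in FP4 and 32 to 48 in SP4. GRF11 kept its level while the 10 members declined, with 57.1 ± 2.38 CPM in FP2, 49.3 ± 2.05 CPM in FP3 and 47.3 ± 1.37 CPM in FP4 (SD, n = 3 each). In WXS (S) it had 51.2 ± 6.73 CPM in SP2, 51.3 ± 10.1 CPM in SP3 and 61.7 ± 4.46 CPM in SP4 (SD, n = 3 each). It passed at P4 alone (-0.37 ± 0.06, SE, edgeR adjusted P = 0.00300), and none of its 4 stage changes passed.

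Of 9 genes placed beside or downstream of rice GRFs, 6 rose in FP2 relative to SP2, against 21.3% of all tested genes. Another 2 fell, near the 19.5% of all tested genes that fell. The median was 0.49 beside 0.04 over all genes. Those that rose were JMJ706 (0.49 ± 0.10) and CR4 (0.53 ± 0.13), floral organ genes linked to GRF6 and GRF10, the KNOX genes OSH15 (0.43 ± 0.11) and OSH71 (0.66 ± 0.16), the branching regulator TAW1 (2.91 ± 0.29) and the auxin synthesis gene YUCCA1 (1.40 ± 0.29, all SE). TAW1 was very low, at 1.53 to 1.82 CPM in FP2 and 0.183 to 0.274 CPM in SP2. The KNOX gene OSH1 (-0.41 ± 0.13) and MADS34 (-0.65 ± 0.09), which acts in panicle branching, fell (SE). The directions of the 3 KNOX genes thus differed at P2. At P3 and P4 TAW1 had too few counts to be tested. Of the other 8 genes OSH71 rose at P3 (0.43 ± 0.14, SE), against 23.7% of all tested genes. At P4 SLR1, CR4 and MADS34 fell, against 24.4% of all tested genes. SLR1, the DELLA repressor of gibberellin signalling, had 82.6 to 85.9 CPM in FP4, against 138.4 to 156.9 CPM in SP4 (-0.82 ± 0.06, SE, edgeR adjusted P = 5.30e-05). Its change from P3 to P4 was more negative in WXS (F) by -0.84 ± 0.16, and that of OSH71 by -0.72 ± 0.21 (SE, edgeR adjusted P = 0.00190 and 0.0250).

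Markers of other cell types differed between the conditions as well. The 8 markers of dividing cells (B-type cyclins and cyclin-dependent kinases and the replication genes PCNA, MCM2 and MCM5) summed to 685 to 710 CPM in FP2 and 478 to 497 CPM in SP2, higher in WXS (F). The summed CPM of the 10 members was lower in FP2, while their summed FPKM overlapped, and GRF1 and GRF7 rose there. The marker sums were 169 to 173 CPM in FP3 and 328 to 359 CPM in SP3, and 82.6 to 87.4 CPM in FP4 and 245 to 259 CPM in SP4. At P2 4 of 8 rose and 1 fell, against 21.3% and 19.5% of all tested genes. PCNA, MCM2 and MCM5 had FP2 means of 1.86, 3.79 and 4.45 times the SP2 means, and 1 kinase of 1.60 times. The means of the B-type cyclins (0.83 to 0.91 of SP2) and of the other kinase (0.94) were lower in FP2. At P3 and at P4 all 8 fell, with medians of -0.99 and -1.62, against 19.1% and 24.4% of all tested genes. In SP4 relative to SP3, 5 of the 8 fell and PCNA and MCM5 rose, against 20.3% and 23.2% of all tested genes. From P2 to P3 all 8 fell more steeply in WXS (F), as GRF1, GRF2, GRF7 and GIF1 did, against 12.4% of all tested genes. Meiocyte markers (6 genes) summed to 151 to 186 CPM in FP3 and 334 to 349 CPM in SP3, and 57.5 to 74.3 CPM in FP4 and 181 to 224 CPM in SP4. At P3 and at P4 3 of the 6 fell and none rose, against 19.1% and 24.4% of all tested genes that fell. Most of the sum at P3 was MEL1, with 109 to 116 CPM in FP3 and 255 to 257 CPM in SP3. ZEP1 went the other way at P3, with overlapping groups (FP3 mean 1.18 times the SP3 mean). Tapetum markers (7 genes) summed to 1282 to 1379 CPM in FP4 and 198 to 210 CPM in SP4, where 4 rose, led by C6 (8.11) and CYP703A3 (4.45), and TDR fell (-1.34). Green-tissue markers (4 genes) summed to 840 to 958 CPM in FP4 and 446 to 501 CPM in SP4, where CAB1R and CAB2R rose and RBCS2 fell (-1.15). Of all tested genes 28.2% rose and 24.4% fell at P4. None of these markers was at 0 in all libraries of a group. The part of these shifts in cell make-up or in timing in the GRF differences was not tested.

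Within the family the profiles over the 18 libraries were alike but not the same. Over the 45 pairs of members Pearson's r of log2(CPM + 1) ran from 0.64 to 0.98 with a median of 0.84, a description over 18 libraries that share stage and condition. GRF9 and GRF10 were closest (0.98), GRF2, GRF6 and GRF8 were each closest to GRF9 (0.97 to 0.98), and GRF1 and GRF7 were closest to each other (0.92). GRF1 and GRF3 were least alike (0.64). GIF1 followed the mean profile of the 10 members at r = 0.98. The members, each of which is part of that profile, had 0.85 to 0.98. GRF12 (0.86), GIF3 (0.88) and GIF2 (0.66) followed it less closely than GIF1, and GRF11 did not (0.06). Such likeness was not particular to the family and its co-activators. Of the linked genes, OSH15 (0.86), MADS34 (0.85) and OSH1 (0.84) were level with GRF12. YUCCA1 (0.44), OSH71 (0.26), JMJ706 (-0.11), CR4 (-0.39) and SLR1 (-0.57) were not. Among 21004 genes, the members included, the 3 outside the family most like the mean profile were LOC_Os06g10230 (0.988), LOC_Os11g04190 (0.987) and LOC_Os04g51110 (0.984). The tables used here give no names for these 3.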

How the data were processed

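Total RNA of young panicles was depleted of ribosomal RNA, and strand-specific libraries were sequenced by the authors. Their clean reads were mapped to the MSU v7.0 rice genome with HISAT2, and the submitters' notes name StringTie 1.3.1. The deposited counts are whole reads per coding gene and library without normalization. The deposited FPKM values were made by the authors, and dividing the counts by the listed gene lengths and the depth does not reproduce them. The counting tool and the handling of reads that map to several GRF paralogs are not given in the sources used here, so levels of close paralogs may share reads. Groups came from the sample titles, and 0 columns of these tables belonged to no sample. The circRNA and lncRNA tables were not used here.

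The main test was edgeR's quasi-likelihood test (edgeR 4.0.16, R 4.3.3) with TMM and no block, among coding genes with at least 10 counts in at least 3 libraries of the fit. WXS (F) was set against WXS (S) within a stage on 6 libraries, and stage changes, their differences between conditions and the comparison over stages were fitted on all 18. A gene was called at a Benjamini-Hochberg adjusted P below 0.05 over all genes tested. SEs are approximate and were derived from the log2 fold change over the root of its F value. CPM were scaled by TMM over 18 libraries, and all correlations used log2(CPM + 1). Those between genes used genes with a mean of at least 1 CPM. Those between libraries used genes with at least 10 counts in at least 3 libraries. Python 3.11.15 with pandas 2.3.3, numpy 2.4.6 and matplotlib 3.10.9 was used for the rest. The procedure was tested on simulated data. Counting error alone does not cover the spread between libraries, which the test estimates.

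The alternatives were DESeq2 1.42.0, no TMM factors, no filter on low counts, the replicate number as a block, other libraries in the fit, genes over 1% of a library left out, a log2 fold change of 1 or more in size at an adjusted P below 0.05 or 0.01, and each library left out in turn. Changes of single calls under these alternatives were followed for the 10 members only, not for the other named genes. All 10 members are described, with the other genes of lists drawn from general knowledge of rice GRFs and cell types, and the 3 genes most correlated with the mean profile of the members. The members, lists and tests were chosen with earlier results of these data known. Gene symbols were paired with identifiers from that knowledge, since the reference table at hand does not hold these identifiers.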

Additional observations from a re-analysis of the deposited data

Results flagged for a closer look

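By the edgeR test of the difference itself, 3 of 10 members were called from P2 to P3 and 1 of 10 from P3 to P4. Of all 27233 genes tested, 27.2% were called from P2 to P3 and 18.5% from P3 to P4, in either direction. In either direction the counts of members thus lay near or below the shares of all genes. By direction, 12.4% of genes had a more negative change from P2 to P3, as the 3 members did. From P3 to P4 6.74% had a more positive change, as the 1 member did. Beside them, 1 of 3 co-activators was called from P2 to P3 and 2 of 9 linked genes from P3 to P4. GRF11 and GRF12 were called in neither. The difference is the log2 change in WXS (F) minus that in WXS (S). From P2 to P3 it was -1.63 for GRF1 (SE 0.27, adjusted P = 0.000341), -1.41 for GRF2 (SE 0.37, adjusted P = 0.0106), -1.32 for GRF7 (SE 0.15, adjusted P = 7.00e-06) and -1.06 for GIF1 (SE 0.20, adjusted P = 0.000980). From P3 to P4 it was 0.77 for GRF3 (SE 0.12, adjusted P = 0.000491), -0.84 for SLR1 (SE 0.16, adjusted P = 0.00190) and -0.72 for OSH71 (SE 0.21, adjusted P = 0.0250). All 8 dividing-cell markers were called in the same direction as GRF1, GRF2, GRF7 and GIF1 from P2 to P3, and the part of that shift in these values was not tested.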

How the results depend on the processing

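Of the log2 fold changes of the 10 members in 10 comparisons, recomputed under each alternative, 1939 values stayed on their side of the threshold, 46 lost a call and 25 gained one. No called value changed sign, while uncalled values near 0 did, among them those of GRF4 and GRF5 at P4 and GRF5 at P2. A required log2 fold change of 1 or more in size moved the counts of members called most. At an adjusted P below 0.05 it left 0 at P2, 1 (GRF2) at P3 and 2 (GRF1 and GRF2) at P4 for WXS (F) against WXS (S), 1 over the stages, 2 for SP3 against SP2, 5 for SP4 against SP3 and 0 for the difference from P3 to P4. All members so called had fallen. In the same sequence 7.76%, 6.65%, 6.78%, 5.83%, 4.11%, 6.83% and 6.59% of all tested genes fell that far. Of all tested genes 10.3% rose that far at P2, and 2.75% did for the difference from P3 to P4. At an adjusted P below 0.01 the counts of members were 0, 1, 1, 1, 2, 5 and 0 in that sequence. No share of all genes was taken at 0.01. The counts of 0 were also 0 at an unadjusted P below 0.05 with this fold, in edgeR and in DESeq2. The replicate numbers do not pair the samples (correlations of deviations of same-numbered libraries -0.232 to 0.0785), and with the replicate block 4 members instead of 7 were called at P3, without GRF3, GRF4 and GRF7, GRF3 was lost at P2 and GRF4 gained for SP4 against SP3. The block moved no other count by more than 1.5 times. Leaving out 1 library in turn gave 2 to 6 members at P2, 3 to 7 at P3, 6 to 8 at P4 and 5 to 6 over the stages. For the stage changes it gave 9 to 10 (FP3 against FP2), 7 to 8 (FP4 against FP3), 6 to 7 (SP3 against SP2) and 8 to 10 (SP4 against SP3), and for the differences between conditions 3 to 3 from P2 to P3 and 1 to 2 from P3 to P4. Without TMM factors the median of all genes at P2 was 0.18 in place of 0.04, with 6557 genes that rose and 3502 that fell in place of 5063 and 4635, GRF3 then did not pass at P2, and the difference of GRF8 from P2 to P3 did (-0.49). Over the 10 comparisons that median lay between -0.18 and 0.18 without TMM factors and between -0.08 and 0.07 with them. GRF2 at P4 rests on 8 to 37 counts a library.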
